A study of Mus musculus with 5 samples.

Results

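The CD26 gate was examined as a difference common to subcutaneous (SAT) and visceral (VAT) fat of the mouse. CD26 is a surface peptidase encoded by Dpp4. All 5 libraries of the series entered: the libraries named for CD26, 1 from SAT (SAT CD26) and 1 from VAT (VAT CD26CD142), against the libraries named for CD142 alone, 1 from SAT (SAT CD142) and 2 from VAT (VAT CD142 libraries 1 and 2). The stromal cells came from 30 wild-type (WT) mice on a chow diet, 12 to 14 weeks old, with no treatment or transgene in any group. Live cells negative for CD31 and CD45 were sorted on CD26 and CD142, and their polyadenylated RNA was sequenced. The labels do not say how the 30 mice were divided among the libraries, so each p-value measures the spread between these libraries, which may be technical.

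The gates of the SAT libraries are given both ways. The library named SAT CD142 carries the title and cell type CD26+CD142-, and the library named SAT CD26 carries CD26-CD142+. In VAT both labels agree: CD26-CD142+ for the CD142 pair and CD26+CD142+ for the other library. Below, CD26+ and CD26- follow the library names. Dpp4 was at 6.58 CPM (TMM-scaled counts relative to library size) in SAT CD142 and 1007 CPM in SAT CD26. In VAT it was at 5.13 and 6.58 CPM in the CD142 pair and 417 CPM in CD26CD142. Dpp4 was thus high in the library titled CD26- in SAT and in the library titled CD26+ in VAT. Since cells were sorted on its product, it checks the labels and is not a finding.

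Gate and library number overlap in part. Both CD26+ libraries carry the number 2 in their names, whereas the CD26- libraries carry 1 in SAT and 1 and 2 in VAT. In SAT the gate and the number cannot be told apart, and VAT CD142 library 2 is the CD26- library that shares the number of the CD26+ libraries. The gate also moves CD142 differently by depot: F3, which encodes CD142, was at 619 against 5.32 CPM in SAT and at 379 and 242 against 99.1 CPM in VAT. Total counts ran from 21706345 to 25357403. Mitochondrially encoded genes took 2.83% and 4.33% of counts in the libraries numbered 1 and 0.554% to 0.633% in those numbered 2.

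In fat, cells with CD26 lie in the reticular interstitium around the lobules and are regarded as multipotent progenitors. They give rise to committed preadipocytes, which lie closer to adipocytes and carry genes of lipid handling, and to CD142+ cells known as Aregs, which have been reported to restrain adipogenesis. Wnt and TGF-beta signals are known to hold progenitors in the undifferentiated state, and PPARG and C/EBP factors drive them into fat cells.

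In both depots, the CD26+ library was far higher in genes of interstitial progenitors other than the sorted Dpp4 (Dact2, Efhd1, Wnt10b, Limch1) and in the paired genes of a hydrogen peroxide-producing oxidase (Duox1, Duoxa1). It was far lower in genes of committed preadipocytes (Car3, Agt, Apoe, Cxcl14). With depot as a term, 51 of 15920 genes tested were higher in CD26+ libraries (0.320% of genes) and 44 were lower (0.276%), by edgeR's quasi-likelihood test at a Benjamini-Hochberg adjusted p under 0.05. The 51 include Dpp4. The log2 changes of the higher genes ran from 2.02 to 10.40 (median 4.06) and those of the lower genes from -6.32 to -1.90 (median -3.36). Adjusted p lay between 0.0368 and 0.0499 for all 95. The fit allows 1 gate effect for both depots and counts any difference between depots as spread, so it calls genes that moved alike.

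Each of the 51 higher genes was at least 2-fold above every CD26- library of its depot in SAT and in VAT, which 2.98% of all genes were. Each of the 44 lower genes was at least 2-fold below every CD26- library of its depot, which 4.20% of all genes were. At 4-fold, 48 higher and 39 lower genes passed. The fit calls genes with large and similar changes in both depots. How many called genes passed these fold limits was thus largely set by the calls and is no separate support for them. Without any fold limit, 24.1% of all genes were above every CD26- library of their depot and 26.2% were below. Of the called genes, 48 of the 51 higher and 43 of the 44 lower were protein-coding. The share over all genes tested was not counted, so these counts describe no trait of the called genes. No call was made when the SAT gates were taken from the titles (0 genes, with 140 at an unadjusted p under 0.05) or when library number was added as a block (0 genes, with 1592 at an unadjusted p under 0.05). In the fit without the block, 2551 genes had an unadjusted p under 0.05, 6.56% of all genes higher and 9.47% lower. DESeq2 called 3.57% of all genes higher and 4.83% lower. Below, "rose", "fell" and "called" refer to edgeR's test unless another tool is named, and counts by the other rules are to be read against these shares.

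**Figure D1:**
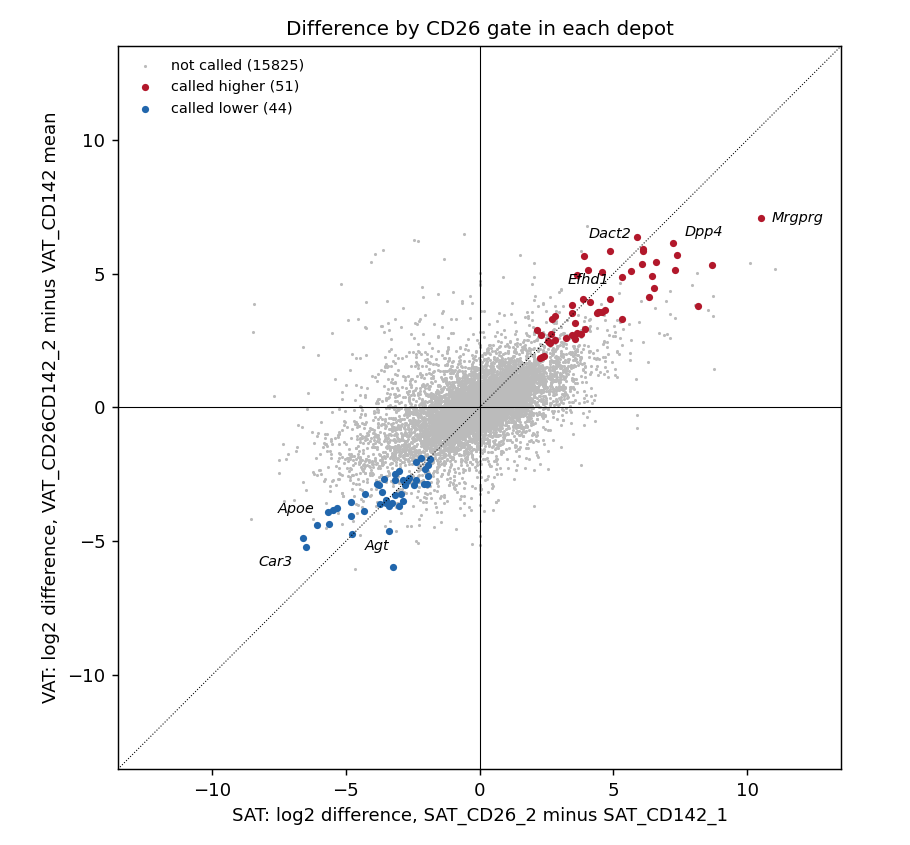
Log2 difference in SAT (x axis, SAT CD26 minus SAT CD142) against that in VAT (y axis, VAT CD26CD142 minus the mean of both VAT CD142 libraries) for the 15920 genes tested. The 51 genes called higher (red) lie in the upper right quadrant and the 44 called lower (blue) in the lower left, and grey genes in the other quadrants differ in direction between depots.

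For 5 of these genes, the 250 bases before the transcription start are shown: Dpp4, the gene of the gate, Efhd1 and Agt, which mark either side of it, and Duoxa1 and Duox1, which lie head to head. They are RefSeq sequences on GRCm38.p6, 5' to 3' on the strand of the gene, and capitals mark a match, on either strand, to any of the motifs spelled out in the next paragraph.
Dpp4, chr2:62412232-62412481, minus strand: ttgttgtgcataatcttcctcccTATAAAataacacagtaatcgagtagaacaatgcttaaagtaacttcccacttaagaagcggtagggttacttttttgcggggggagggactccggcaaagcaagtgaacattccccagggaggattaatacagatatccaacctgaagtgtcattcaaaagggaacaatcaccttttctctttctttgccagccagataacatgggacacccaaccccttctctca
Efhd1, chr1:87264103-87264352, plus strand: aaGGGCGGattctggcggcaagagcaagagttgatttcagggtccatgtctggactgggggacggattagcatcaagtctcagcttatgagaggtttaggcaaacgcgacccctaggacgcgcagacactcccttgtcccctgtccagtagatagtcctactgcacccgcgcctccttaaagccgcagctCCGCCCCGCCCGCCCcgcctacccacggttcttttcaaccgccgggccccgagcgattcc
Duoxa1, chr2:122313731-122313980, minus strand: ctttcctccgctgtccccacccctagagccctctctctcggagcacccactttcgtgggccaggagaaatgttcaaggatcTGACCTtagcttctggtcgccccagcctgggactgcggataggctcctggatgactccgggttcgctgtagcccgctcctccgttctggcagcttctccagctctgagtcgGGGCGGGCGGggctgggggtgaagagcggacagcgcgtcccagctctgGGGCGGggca
Duox1, chr2:122315422-122315671, plus strand: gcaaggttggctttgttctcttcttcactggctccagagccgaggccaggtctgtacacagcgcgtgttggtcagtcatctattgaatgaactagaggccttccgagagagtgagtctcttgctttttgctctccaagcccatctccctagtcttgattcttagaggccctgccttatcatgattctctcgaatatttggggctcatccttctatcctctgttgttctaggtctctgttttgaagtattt
Agt, chr8:124569707-124569956, minus strand: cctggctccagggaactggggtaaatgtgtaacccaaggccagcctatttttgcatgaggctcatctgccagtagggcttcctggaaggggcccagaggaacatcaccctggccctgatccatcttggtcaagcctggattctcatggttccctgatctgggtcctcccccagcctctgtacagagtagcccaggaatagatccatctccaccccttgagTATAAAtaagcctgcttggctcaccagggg
The Agt run holds TATAAA with its first base 30 bases before the start. The Dpp4 run holds the same letters 227 bases before the start. Efhd1 has 4 matches to GGGCGG, at -248, -60, -55 and -51, where neighbours overlap, and Duoxa1 has 3, at -58, -54 and -10, with an AGGTCA match at -169. The Duox1 run holds no match. The table gives no promoter for Car3.

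RefSeq promoters of 300 bases, 250 before to 50 after the start, were found for 73 of the 95 called genes, 39 higher and 34 lower. GGGCGG, the GC box, was in 59% of the higher, 52.9% of the lower and 35.9% of all 32544 promoters. TATAAA was in 15.4%, 14.7% and 13.6% of them, in the same order. CACGTG, the E-box, was in 7.69%, 14.7% and 7.17%. AGGTCA, a site of nuclear receptors, was in 7.69%, 17.6% and 16.2%. CTTTGA, the core of the TCF/LEF motif, was in 20.5%, 11.8% and 16% of them. TGANTCA, the AP-1 motif, was in 7.69%, 5.88% and 7.79%. Median GC content was 59% in higher, 58% in lower and 53% in all promoters. These shares describe the letters in the windows.

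In what follows, levels are given as SAT CD142 against SAT CD26, then as VAT CD142 libraries 1 and 2 against VAT CD26CD142. The log2 change is that of the fit with depot as a term, with an SE taken as its size divided by the square root of F. For called genes, a gap between CD26+ and CD26- libraries within a depot follows from how they were chosen. Such gaps describe these genes and are no separate finding.

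Efhd1 (ENSMUSG00000026255, mm10 chromosome 1, 87264363 to 87310839), a calcium-binding protein of mitochondria, was at 5.11 against 205 CPM in SAT and at 5.18 and 3.70 against 131 CPM in VAT. Dact2 (ENSMUSG00000048826, chromosome 17, 14195052 to 14204304), which binds Dishevelled in Wnt signalling, was at 2.81 against 197 CPM in SAT and at 2.16 and 5.55 against 216 CPM in VAT. For both, the CD26+ libraries lay apart from all CD26- libraries. The CD26- libraries of SAT and VAT were close together for Efhd1. For Dact2, VAT CD142 library 2 was 1.33 log2 units above library 1. Efhd1 rose by 5.08 on the log2 scale (SE 0.28, adjusted p = 0.0368) and Dact2 by 5.94 (SE 0.47, adjusted p = 0.0368). Dpp4 itself (ENSMUSG00000035000, chromosome 2, 62330073 to 62412231) had a log2 change of 6.64 (SE 0.40).

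Car3 (ENSMUSG00000027559, chromosome 3, 14863512 to 14872523), a carbonic anhydrase abundant in fat cells, was at 129 against 1.35 CPM in SAT and at 102 and 136 against 3.13 CPM in VAT. Agt (ENSMUSG00000031980, chromosome 8, 124556534 to 124569706), the precursor of the angiotensins, was at 275 against 10.1 CPM in SAT and at 702 and 514 against 22.8 CPM in VAT. The CD26- libraries were high and the CD26+ libraries low for both, with no overlap. Car3 changed by -5.77 (SE 0.46, adjusted p = 0.0368) and Agt by -4.75 (SE 0.33, adjusted p = 0.0368) on the log2 scale. Agt differed to almost the same extent in each depot, with log2 differences of -4.76 in SAT and -4.72 in VAT. In bulk libraries, fewer cells of a type and less RNA per cell cannot be told apart.

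**Figure D2:**
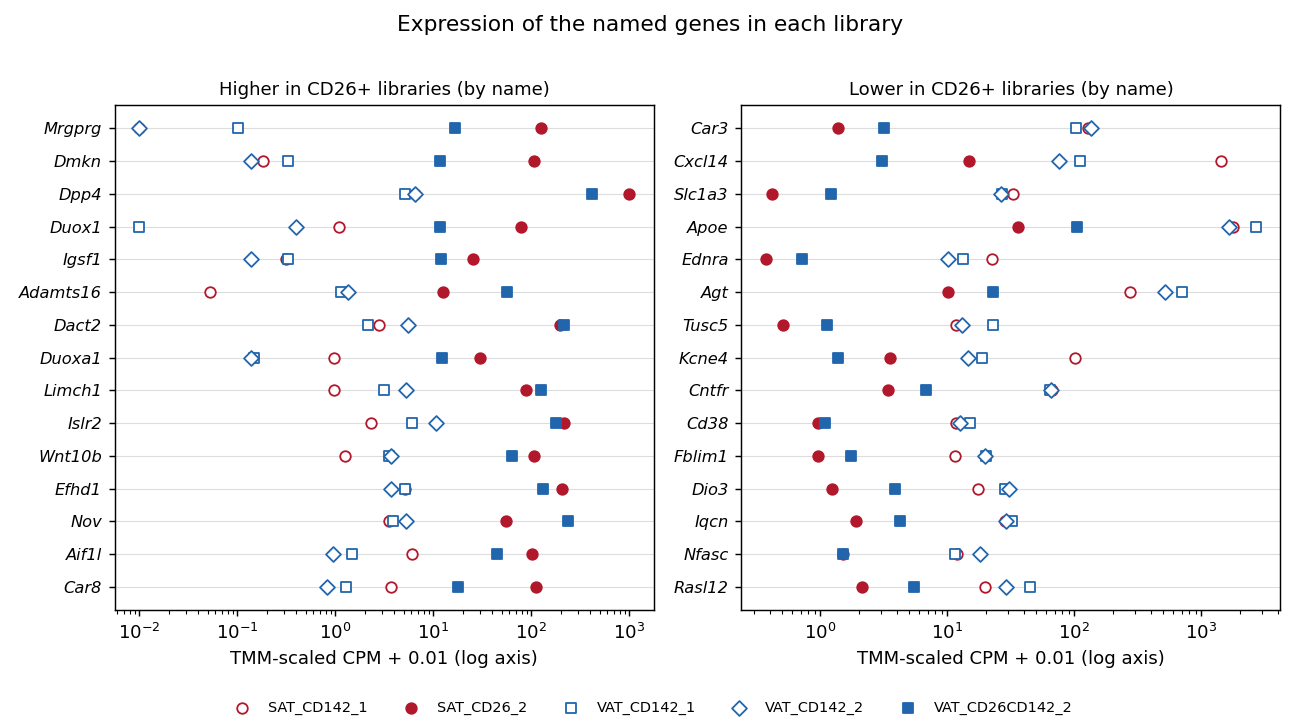
Level of each named gene in each library (x axis, TMM-scaled CPM plus 0.01 on a log axis), with 15 genes that rose on the left and 15 that fell on the right, ordered by log2 change. Filled symbols are the CD26+ libraries by name and open symbols the CD26- libraries, with SAT in red and VAT in blue. Within each depot the filled symbol stands apart from all open ones for each of the 30 genes, as the rule that chose them required.

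Among surface receptors, Mrgprg, an orphan receptor of the Mas-related family, was at 0 against 126 CPM in SAT and at 0.0917 and 0 against 16.6 CPM in VAT. The CD26- libraries hold 2 of its counts together, so that the CD26+ libraries were 2344-fold higher with an exact 95% counting interval of 648 to 19360. That ratio pools the depots, with 2791 of the 3193 CD26+ counts of Mrgprg from SAT. Its fitted log2 change of 10.40 became 8.39 without SAT CD142, 8.38 without SAT CD26 and 13.66 without VAT CD142 library 1, where all CD26- libraries left are at 0. Gpr1, a receptor of the adipokine chemerin, was at 0.216 against 47.4 CPM in SAT and at 0.0917 and 0.0860 against 6.06 CPM in VAT (6.94 log2 units, SE 0.49, adjusted p = 0.0368). Islr2, a leucine-rich repeat membrane protein known from axon guidance, was at 2.29 against 215 CPM in SAT and at 6.05 and 10.8 against 180 CPM in VAT (5.32 log2 units, SE 0.61, adjusted p = 0.0476), and without VAT CD142 library 1 it did not pass (adjusted p = 0.0702). Igsf1, a membrane glycoprotein of the immunoglobulin superfamily, was at 0.303 against 25.8 CPM and at 0.321 and 0.129 against 12.0 CPM (6.01 log2 units, SE 0.46, adjusted p = 0.0368). All were near 0 or low in each CD26- library and clearly present in both CD26+ libraries. Mrgprg, Gpr1 and Igsf1, and below Dmkn and Akr1c18, met the low-count filter only through the CD26+ libraries. These genes could enter the test only by being high there, so their low CD26- levels are no further support.

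Among the higher abundance surface proteins, Ackr3, an atypical receptor that takes up the chemokine CXCL12, was at 285 against 1778 CPM in SAT and at 307 and 320 against 1677 CPM in VAT. Cd55, which protects cells from complement, was at 37.1 against 507 CPM in SAT and at 112 and 113 against 756 CPM in VAT. Robo1, a receptor for Slit proteins, was at 6.40 against 31.4 CPM and at 8.02 and 11.8 against 63.3 CPM. The log2 changes were 2.52 (SE 0.26) for Ackr3, 3.19 (SE 0.33) for Cd55 and 2.51 (SE 0.27) for Robo1, with adjusted p of 0.0413, 0.0417 and 0.0417. Gm15675, a lincRNA gene 1835 bases from Cd55 on the same strand, rose with it (log2 change 2.98, SE 0.34).

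Secreted factors rose as well. Wnt10b, a Wnt ligand known to block adipogenesis, was at 1.26 against 106 CPM in SAT and at 3.53 and 3.70 against 63.9 CPM in VAT (5.08 log2 units, SE 0.57, adjusted p = 0.0468). Nov, which encodes the matricellular protein CCN3, was at 3.55 against 54.8 CPM in SAT and at 3.90 and 5.33 against 237 CPM in VAT (4.99 log2 units, SE 0.47, adjusted p = 0.0381). Sema3c, a secreted semaphorin, was at 86.7 against 523 CPM and at 67.4 and 77.0 against 394 CPM (2.51 log2 units, SE 0.23, adjusted p = 0.0381). For each of these the CD26- libraries lay below both CD26+ libraries.

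Wnt2 also rose, but its level was set by depot: it was at 33.5 against 150 CPM in SAT and at 0.458 and 0.344 against 3.50 CPM in VAT (2.60 log2 units, SE 0.31, adjusted p = 0.0499). The VAT CD26+ library was thus below the SAT CD26- library. Bmp3, a BMP family member that opposes other BMPs, was at 0.562 against 26.1 CPM in SAT and at 0 in both CD142 libraries against 0.783 CPM in VAT (5.73 log2 units, SE 0.61, adjusted p = 0.0417). Tnfrsf11b, the decoy receptor osteoprotegerin, was at 1.17 against 8.71 CPM and at 3.03 and 5.89 against 46.3 CPM (3.19 log2 units, SE 0.37, adjusted p = 0.0499). Dmkn, the secreted skin protein dermokine, was at 0.173 against 107 CPM in SAT and at 0.321 and 0.129 against 11.9 CPM in VAT (7.25 log2 units, SE 0.83, adjusted p = 0.0476).

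Extracellular proteases and enzymes of signalling lipids were a further group. Adamts16, a secreted metalloprotease, was at 0.0433 against 12.5 CPM in SAT and at 1.15 and 1.33 against 56.6 CPM in VAT. Pcsk6, a proprotein convertase that cleaves growth factor precursors, was at 33.5 against 869 CPM in SAT and at 68.4 and 131 against 1179 CPM in VAT. Mgll, which breaks down monoacylglycerols, was at 18.0 against 223 CPM in SAT and at 10.1 and 9.63 against 68.6 CPM in VAT. The CD26+ libraries were the highest of their depot for all of them, with log2 changes of 5.98 (SE 0.49), 4.06 (SE 0.46) and 3.17 (SE 0.28) and adjusted p of 0.0368, 0.0476 and 0.0381. Akr1c18, a progesterone-reducing hydroxysteroid dehydrogenase, was at 0.303 against 112 CPM in SAT but at 0 and 0 against 1.11 CPM in VAT (8.46 log2 units, SE 0.43, adjusted p = 0.0368). Its reads may be shared with close relatives of the same family.

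Duox1, a dual oxidase that makes hydrogen peroxide at the cell surface, was at 1.08 against 79.2 CPM in SAT and at 0 and 0.387 against 11.7 CPM in VAT. Duoxa1, the factor that Duox1 needs to leave the endoplasmic reticulum, was at 0.952 against 30.2 CPM in SAT and at 0.138 and 0.129 against 12.5 CPM in VAT. Their start sites lie 1942 bases apart on chromosome 2 on opposite strands, and both were high in the same libraries. Duox1 rose by 6.03 (SE 0.71, adjusted p = 0.0499) and Duoxa1 by 5.71 (SE 0.46, adjusted p = 0.0368). The related Duox2 was at 0 in all CD26- libraries and at 1.04 and 0.866 CPM in the CD26+ libraries of SAT and VAT, and did not pass (adjusted p = 0.189). Nox4, another oxidase, was at 19.8 against 109 CPM and at 10.4 and 11.8 against 22.6 CPM and did not pass (1.66 log2 units, adjusted p = 0.148).

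The remaining named genes that rose act inside the cell. Limch1, which binds actin and myosin, was at 0.952 against 89.1 CPM in SAT and at 3.12 and 5.29 against 125 CPM in VAT (5.54 log2 units, SE 0.50, adjusted p = 0.0381). Uchl1, a deubiquitinating enzyme whose gene lies 58592 bases from Limch1 on chromosome 5, was at 4.02 against 63.6 CPM and at 11.1 and 7.23 against 68.8 CPM (3.37 log2 units, SE 0.37, adjusted p = 0.0439). Aif1l, an actin-bundling protein, was at 6.06 against 103 CPM and at 1.47 and 0.946 against 44.6 CPM (4.71 log2 units, SE 0.37, adjusted p = 0.0368). Both CD26+ libraries lay above all CD26- libraries for these 3 genes.

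Car8, a carbonic anhydrase relative that lacks the enzyme's activity, was at 3.72 against 112 CPM in SAT and at 1.28 and 0.817 against 18.1 CPM in VAT (4.48 log2 units, SE 0.34, adjusted p = 0.0368). It moved opposite to Car3. The transcription factor gene Irf4 was at 28.7 against 136 CPM and at 7.43 and 9.68 against 30.8 CPM, the smallest of the 51 changes (2.02 log2 units, SE 0.25, adjusted p = 0.0499). Cmah, which makes the sialic acid Neu5Gc, was at 10.0 against 125 CPM and at 3.03 and 5.25 against 124 CPM (4.38 log2 units, SE 0.42, adjusted p = 0.0381).

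Among genes that fell, those of secreted proteins reached the highest levels. Apoe, the apolipoprotein that carries lipid out of cells, was at 1790 against 36.0 CPM in SAT and at 2693 and 1660 against 104 CPM in VAT. Cxcl14, a chemokine, was at 1421 against 14.7 CPM in SAT and at 110 and 76.0 against 3.05 CPM in VAT. Apoe was similarly high in the CD26- libraries of both depots, while Cxcl14 was more than 10-fold higher in SAT CD142 than in either VAT CD142 library and fell in each depot. The changes were -4.90 (SE 0.53, adjusted p = 0.0417) and -5.64 (SE 0.58, adjusted p = 0.0413). Bmper, which binds BMPs, was at 211 against 40.6 CPM and at 628 and 634 against 152 CPM (-2.19 log2 units, SE 0.26, adjusted p = 0.0499). Spon1, a matrix protein, was at 153 against 22.2 CPM and at 574 and 466 against 69.2 CPM (-2.86 log2 units, SE 0.28, adjusted p = 0.0381). Spon1 lies 3411 bases from Rras2, a RAS-related GTPase gene on the other strand, which rose (8.39 against 60.3 CPM in SAT, 12.8 and 15.2 against 80.4 CPM in VAT).

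Receptors and channels fell too. Ednra, the type A endothelin receptor, was at 22.4 against 0.361 CPM in SAT and at 13.3 and 10.1 against 0.701 CPM in VAT (-4.80 log2 units, SE 0.58, adjusted p = 0.0499), and did not pass by limma-voom (adjusted p = 0.0552). Cntfr, the receptor subunit for ciliary neurotrophic factor, was at 66.5 against 3.38 CPM and at 64.3 and 65.3 against 6.80 CPM (-3.68 log2 units, SE 0.35, adjusted p = 0.0381). Kcne4, a potassium channel subunit, was at 102 against 3.52 CPM and at 18.7 and 14.5 against 1.36 CPM (-4.18 log2 units, SE 0.42, adjusted p = 0.0403). The 3 CD26- levels of Cntfr were nearly equal, whereas Kcne4 was highest in SAT CD142.

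Slc1a3, a glutamate transporter, was at 33.0 against 0.406 CPM in SAT and at 27.0 and 26.3 against 1.20 CPM in VAT (-5.16 log2 units, SE 0.52, adjusted p = 0.0403). Abcc9, a regulatory subunit of ATP-sensitive potassium channels and also a mural cell marker, was at 98.2 against 12.0 CPM and at 7.24 and 8.52 against 0.536 CPM (-3.41 log2 units, SE 0.33, adjusted p = 0.0381). Fgfr2, a receptor for fibroblast growth factors, was at 29.0 against 7.62 CPM and at 37.0 and 32.9 against 7.79 CPM (-2.06 log2 units, SE 0.24, adjusted p = 0.0493). Fgfrl1, a receptor of the same family without a kinase, had the smallest change of the 44 (-1.90 log2 units, SE 0.23, adjusted p = 0.0499).

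Dio3, the deiodinase that inactivates thyroid hormone, was at 17.4 against 1.22 CPM in SAT and at 28.2 and 30.5 against 3.83 CPM in VAT (-3.29 log2 units, SE 0.33, adjusted p = 0.0403). Its antisense neighbour Dio3os, which starts 896 bases away, fell with it (-4.39, SE 0.53). The 2 genes do not overlap as annotated. Cd38, which consumes NAD, was at 11.6 against 0.947 CPM and at 15.1 and 12.5 against 1.07 CPM (-3.65 log2 units, SE 0.34, adjusted p = 0.0381). Tusc5, which acts in the traffic of the glucose transporter GLUT4 in fat cells, was at 11.6 against 0.496 CPM and at 22.8 and 13.1 against 1.11 CPM (-4.21 log2 units, SE 0.44, adjusted p = 0.0417), and did not pass by limma-voom (adjusted p = 0.0682). All were present in each CD26- library and near 1 CPM or below in SAT CD26.

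Nfasc, a neuronal adhesion molecule, was at 11.9 against 1.49 CPM in SAT and at 11.5 and 18.2 against 1.48 CPM in VAT (-3.18 log2 units, SE 0.39, adjusted p = 0.0499), and did not pass by limma-voom (adjusted p = 0.0624). Fblim1, which links filamin to adhesions, was at 11.5 against 0.947 CPM and at 20.2 and 19.9 against 1.73 CPM (-3.56 log2 units, SE 0.30, adjusted p = 0.0368). Sdc1, the proteoglycan syndecan-1, was at 54.3 against 8.71 CPM and at 45.7 and 37.6 against 6.64 CPM (-2.65 log2 units, SE 0.25, adjusted p = 0.0381). The log2 differences of Sdc1 were -2.63 in SAT and -2.63 in VAT. The named genes Iqcn and Rasl12 fell by 3.29 and 2.94, and Rasl12 did not pass by limma-voom (adjusted p = 0.0516).

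Of 24 listed markers of interstitial progenitors, all tested, 11 rose (Dpp4, the sorted gene, among them) and none fell by edgeR, DESeq2 called 21 higher and 0 lower, and 23 were above every CD26- library in both depots. Their median log2 change was 3.06, against -0.01 over all genes tested. Pi16, a peptidase inhibitor gene much used to mark these cells, was at 64.1 against 6594 CPM in SAT and at 333 and 277 against 2083 CPM in VAT but did not pass (4.57 log2 units, SE 1.05, adjusted p = 0.145). Anxa3 (4.22 log2 units, adjusted p = 0.0811), Tek (2.93 log2 units, adjusted p = 0.0811) and Sema3e (6.76 log2 units, adjusted p = 0.138) did not pass either. The exception in direction was Aldh1a3, at 10.4 against 623 CPM in SAT and at 488 and 786 against 361 CPM in VAT. The summed level of the list was 3357 against 32300 CPM in SAT and 4162 and 7916 against 24940 CPM in VAT.

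Of 18 markers of committed preadipocytes, 5 fell (Car3, Cxcl14, Apoe, Agt and Sdc1) and none rose by edgeR, DESeq2 called 16 lower and 0 higher, with a median of -2.44 and 17 below every CD26- library in both depots. Pparg, the main driver of fat cell formation, was at 34.7 against 6.18 CPM in SAT and at 30.7 and 27.0 against 2.19 CPM in VAT, just outside the threshold (-3.15 log2 units, SE 0.39, adjusted p = 0.0517). Fabp4, a fatty acid carrier, was at 360 against 25.1 CPM and at 373 and 307 against 81.1 CPM (-2.78 log2 units, adjusted p = 0.103). Lpl, the lipase that frees fatty acids from lipoproteins, was at 1773 against 238 CPM and at 1156 and 500 against 285 CPM (-2.10 log2 units, adjusted p = 0.182). Icam1 was the member in neither direction in both depots. The lists of these markers hold genes known from earlier results of these data, so the counts describe and do not test them.

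Of 14 Areg markers, 1 fell (Bmper) and none rose by edgeR, and 7 were lower by DESeq2 and 8 at an unadjusted p under 0.05. In both depots, 12 were below every CD26- library, among them F3, the gene of the sorted CD142. The median over the list was -2.11. The median was -3.50 in SAT and -1.57 in VAT. Mgp, a matrix protein that binds BMPs, was at 688 against 3.70 CPM in SAT and at 820 and 624 against 183 CPM in VAT. Gdf10, a ligand of the TGF-beta family, was at 2522 against 299 CPM and at 1934 and 1580 against 605 CPM (-2.16 log2 units, adjusted p = 0.131). The SAT CD26 library is CD142-low by F3 and the VAT CD26CD142 library was sorted CD142+, so a CD142 difference goes with the gate more in SAT than in VAT.

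The 7 tested markers of mature adipocytes were all below every CD26- library in both depots (median -3.48), though none passed by edgeR (7 at an unadjusted p under 0.05, 4 by DESeq2). Their levels were low throughout: Adipoq, the adiponectin gene, was at 5.32 against 0 CPM in SAT and at 1.74 and 3.44 against 0.412 CPM in VAT. Among 26 genes of lipid uptake, storage and lipolysis, Mgll rose and Apoe fell (2 higher and 12 lower by DESeq2), 17 were below and 4 above every CD26- library in both depots, and the median was -1.43. Plin1, a lipid droplet coat protein, was at 8.91 against 0.271 CPM and at 5.36 and 12.9 against 0.0412 CPM (adjusted p = 0.0739). Pnpla2, the first lipase of fat breakdown, differed little (25.6 against 25.5 CPM, and 26.2 and 30.2 against 27.9 CPM).

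Of 16 adipogenic transcription factors tested, none passed by edgeR, and the median was -0.31. At an unadjusted p under 0.05, 2 were higher and 4 lower, and DESeq2 called 1 higher and 2 lower. Cebpa was at 83.3 against 35.1 CPM in SAT and at 89.8 and 85.3 against 37.2 CPM in VAT (-1.24 log2 units, SE 0.21, adjusted p = 0.0955). Ebf2, a factor of early progenitors, was at 72.7 against 167 CPM and at 128 and 150 against 215 CPM (0.88 log2 units, adjusted p = 0.216). The list thus holds members with values in each direction.

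Of 35 Wnt genes tested, the ligands Wnt2 and Wnt10b and the modulator Dact2 rose and none fell by edgeR, with a median of -0.05. DESeq2 called 7 higher and 4 lower, and at an unadjusted p under 0.05 there were 8 and 5. The ligand Wnt11 was at 25.7 against 95.7 CPM in SAT and at 25.4 and 27.5 against 77.3 CPM in VAT (1.70 log2 units, SE 0.22, adjusted p = 0.0531). Axin2, a common target of the pathway, was at 4.89 against 12.3 CPM and at 19.8 and 22.7 against 22.9 CPM (0.63 log2 units, adjusted p = 0.426).

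Of 35 TGF-beta and BMP genes tested, Bmp3 rose and Bmper fell (8 higher and 8 lower by DESeq2), with a median of -0.39. The receptor Tgfbr2 was at 360 against 1833 CPM in SAT and at 358 and 550 against 992 CPM in VAT (1.67 log2 units, adjusted p = 0.166). Bmp7 was at 0 against 96.5 CPM and at 1.28 and 1.85 against 68.1 CPM and did not pass (adjusted p = 0.089).

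Of 32 guidance genes tested, Sema3c and Robo1 rose and the semaphorin receptor Plxnd1 fell (53.9 against 13.2 CPM in SAT, 85.1 and 104 against 19.2 CPM in VAT). DESeq2 called 9 guidance genes higher and 4 lower. Plxnd1 had a log2 change of -2.18 (SE 0.25, adjusted p = 0.0468). Among 24 chemokine and cytokine genes, Ackr3 rose and Cxcl14 fell (5 higher and 3 lower by DESeq2). Cxcl12, the ligand that ACKR3 takes up, was at 1764 against 122 CPM and at 763 and 426 against 131 CPM but did not pass (-2.85 log2 units, adjusted p = 0.117). Ackr2, a decoy receptor for inflammatory chemokines, was at 6.02 against 167 CPM and at 13.1 and 19.5 against 120 CPM (3.72 log2 units, adjusted p = 0.0661). Cd55 was the single complement gene of 18 called by edgeR, and DESeq2 called 1 higher and 2 lower.

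The lists of matrix genes gave 1 call by edgeR, Nov, among 14 CCN and matricellular genes, of which DESeq2 called 3 higher and 3 lower. No gene passed by edgeR among 24 basement membrane, 20 fibrillar collagen and 15 elastic fibre genes, though at an unadjusted p under 0.05 these lists had 4, 1 and 4 higher and 5, 3 and 4 lower genes. DESeq2 called 3, 1 and 4 of them higher and 3 of each list lower. Fbn1, the main protein of microfibrils, was at 403 against 2219 CPM in SAT and at 533 and 889 against 4180 CPM in VAT (2.52 log2 units, adjusted p = 0.0603). Col15a1, a collagen of basement membrane zones, was at 692 against 32.3 CPM and at 822 and 1484 against 239 CPM (-3.12 log2 units, adjusted p = 0.128). The pan-mesenchymal markers had a median of 0.13, and none of 13 passed by edgeR or DESeq2 (1 at an unadjusted p under 0.05). Pdgfra, the receptor that marks these progenitors, was at 687 against 892 CPM and at 682 and 1173 against 1108 CPM.

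Of 21 interferon response genes, 13 were above and 0 below every CD26- library in both depots, with a median of 0.44, and none passed by edgeR (7 at an unadjusted p under 0.05, 5 by DESeq2). Irf7, a master regulator of that response, was at 45.2 against 132 CPM in SAT and at 31.9 and 24.3 against 68.4 CPM in VAT (1.40 log2 units, adjusted p = 0.0949). Of 21 immediate early genes, which respond within minutes to dissociation among other stimuli, 13 were below and 2 above, with a median of -0.66 and no call by edgeR (6 at an unadjusted p under 0.05, 5 by DESeq2). Jun was at 4193 against 1728 CPM and at 4519 and 3037 against 1521 CPM.

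The other lists gave few calls. Car8 rose and Car3 fell among 8 carbonic anhydrase genes, and Dpp4, the sorted gene, and Agt were the calls among 12 renin-angiotensin genes and surface peptidases. DESeq2 called 1 higher and 2 lower in the first list and 2 higher and 1 lower in the second. No gene passed by edgeR among 16 retinoid, 14 IGF, 14 Notch, 11 Hedgehog, 20 cell cycle and 14 heat shock genes. At an unadjusted p under 0.05, these lists had 3, 3, 2, 1, 2 and 0 higher genes and 4, 4, 5, 4, 0 and 1 lower genes, and DESeq2 called 2, 1, 2, 0, 0 and 0 higher and 4, 3, 5, 4, 0 and 0 lower. The largest median among them was that of the Notch genes, at -1.45, of which 8 were below every CD26- library in both depots.

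**Figure D3:**
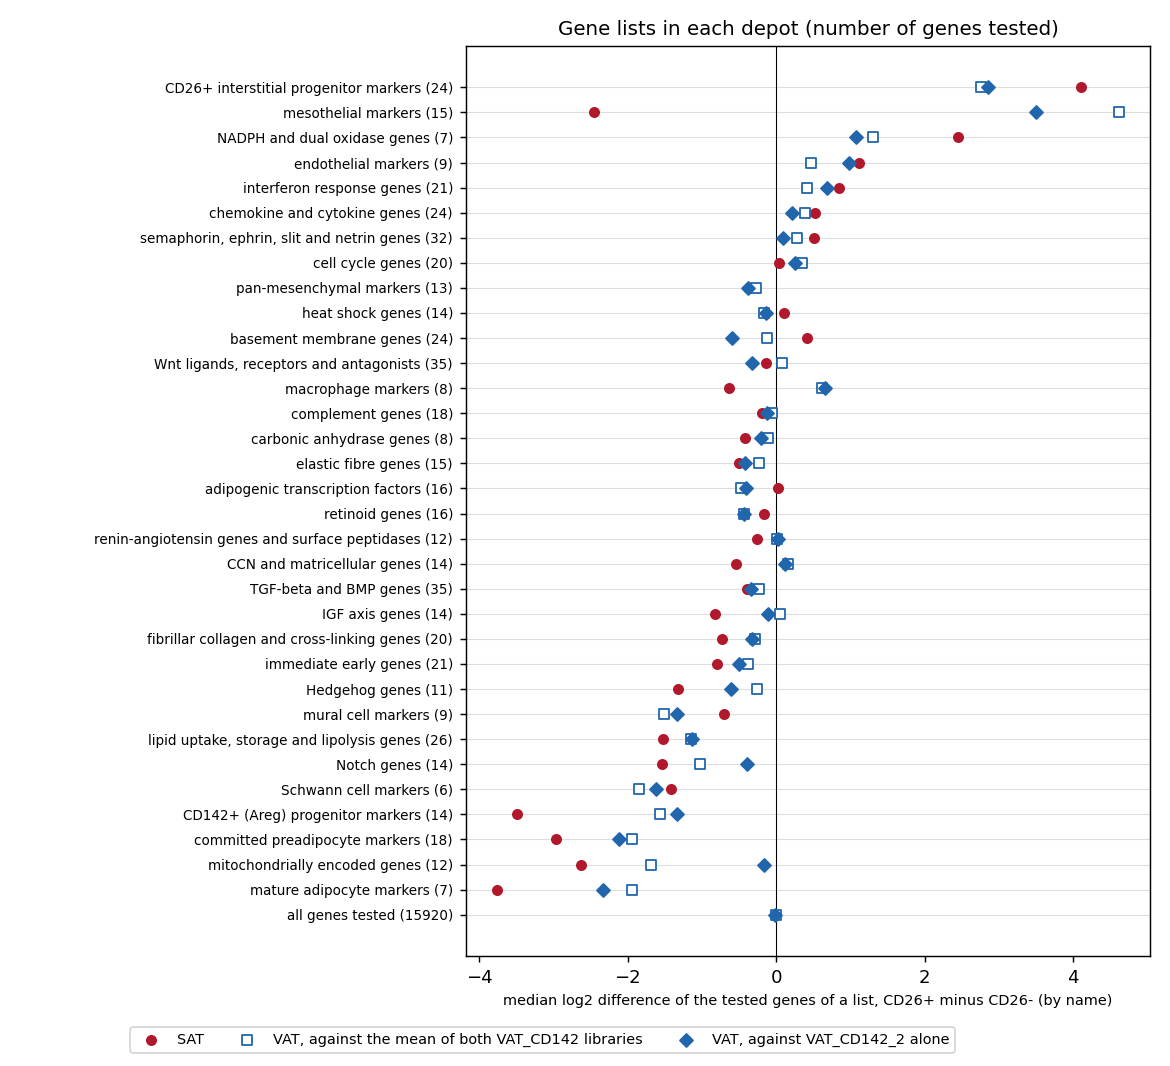
Median log2 difference, CD26+ minus CD26- by name, of the tested genes of each list with at least 5 tested, in SAT (red circles), in VAT against the mean of both CD142 libraries (open squares) and in VAT against CD142 library 2 alone (filled diamonds). Interstitial markers were at 4.10, 2.76 and 2.85, mesothelial markers at -2.45, 4.62 and 3.50, and mitochondrially encoded genes at -2.63, -1.69 and -0.16.

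Markers of other cells moved in part with the gate. Summed levels cover all listed genes with deposited counts, tested or not. Mesothelial markers went opposite ways in the depots: their summed level was 272 against 15.4 CPM in SAT and 336 and 345 against 514 CPM in VAT, with 1 of 15 above and 2 below every CD26- library in both depots. Msln and Bnc1 were at 0 in both SAT libraries. The keratins Krt8, Krt18 and Krt7 were at 45.8, 46.7 and 16.1 CPM in SAT CD142. In VAT CD142 library 1 they were at 0.275, 0.733 and 0.183 CPM. The sum thus draws in part on different genes in SAT and in VAT. Summed endothelial markers were at 20.9 against 39.5 CPM and at 21.9 and 11.4 against 24.4 CPM, and macrophage markers at 58.9 against 27.2 CPM and at 39.7 and 29.0 against 32.0 CPM. Mural markers summed to 151 against 43.6 CPM and to 78.8 and 108 against 24.4 CPM, with Abcc9 called. Of the 6 Schwann cell markers tested, 5 were below every CD26- library in both depots. The whole Schwann list summed to 53.4 against 57.7 CPM and to 21.4 and 19.0 against 14.6 CPM. Epithelial markers (3 tested) summed to 148 against 12.9 CPM and to 0.871 and 2.84 against 30.8 CPM. Muscle (4 tested), erythrocyte (3) and lymphocyte (1) markers summed to at most 15.1 CPM in any library and held no call. Among these lists, edgeR made no other call than Abcc9, while at an unadjusted p under 0.05 mesothelial markers had 3 higher and 1 lower, endothelial 2 higher, macrophage 1 lower, mural 3 lower, Schwann 1 higher and 3 lower and epithelial 1 lower. DESeq2 called 1 mesothelial marker higher and 1 lower, 1 macrophage, 2 mural and 1 epithelial marker lower, and 1 Schwann marker higher and 3 lower. The part of these cells in the results was not tested. Ptprc, the gene of CD45, was below 1 CPM in all 5 libraries, and Pecam1, the gene of CD31, was between 2.32 and 7.26 CPM.

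Mitochondrially encoded genes followed the library number. Their summed level was 29880 against 5402 CPM in SAT and 41850 and 6117 against 5592 CPM in VAT. None of 12 passed by edgeR (9 at an unadjusted p under 0.05, 7 by DESeq2). The VAT CD142 libraries 1 and 2 were at least 2-fold apart in 4 of the 51 genes that rose (7.84%) and in 1 of the 44 that fell (2.27%), against 19.7% of all genes. Within the libraries numbered 2 in VAT, the median log2 difference was 3.66 for the genes that rose and -3.16 for those that fell, and in SAT 4.13 and -3.25. Genes with a wide spread between the VAT CD142 pair were less able to pass the test, and genes with large differences in both depots more able. These shares and medians are thus largely set by the fit and do not bear on library number.

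**Figure D4:**
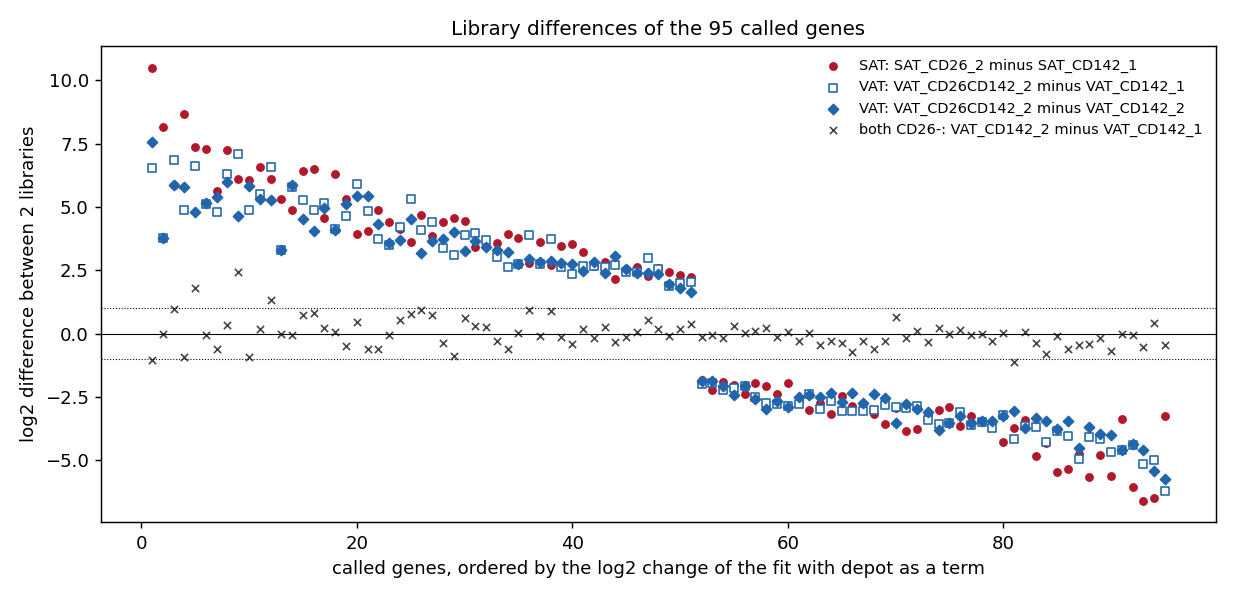
Log2 difference between pairs of libraries (y axis) for the 95 called genes, ordered on the x axis by log2 change. Red circles are SAT CD26 minus SAT CD142, blue squares and diamonds VAT CD26CD142 minus VAT CD142 libraries 1 and 2, and crosses VAT CD142 library 2 minus 1. Crosses lie within 1 log2 unit (dotted lines) for all but 4 of the higher and 1 of the lower genes.

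SAT and VAT share no library, so a gate difference called in VAT alone can be looked up in SAT. With the 3 VAT libraries, 191 of 16556 genes were higher in VAT CD26CD142 (1.15%) and 154 were lower (0.930%). Of the 191, 161 (84.3%) were also higher in SAT CD26 than in SAT CD142, 148 of them at least 2-fold, and their median log2 difference in SAT was 2.83. Of the 154, 148 (96.1%) were lower in SAT CD26, 132 of them at least 2-fold, with a median of -2.94. Over all genes, 49.3% were higher in SAT CD26, 14.9% at least 2-fold higher and 17.0% at least 2-fold lower, and the median was 0. SAT differs by number as well as by gate. With the VAT libraries numbered 2 alone, 823 genes were at least 2-fold apart and at 10 CPM or more in either library. Of these, 85.2% had the same sign in SAT. The genes called in VAT alone had no such CPM limit, so the shares are not on the same set of genes.

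The genes that rose in VAT alone and were at least 2-fold lower in SAT numbered 17. They include keratins and other genes of epithelia and mesothelium: Krt8 was at 45.8 against 0.0451 CPM in SAT and at 0.275 and 0.860 against 8.53 CPM in VAT, and Krt7 at 16.1 against 0.361 CPM and at 0.183 and 0.258 against 7.34 CPM. Fgf1, a fibroblast growth factor, was at 6.06 against 2.21 CPM in SAT and at 5.13 and 8.30 against 76.1 CPM in VAT. The gene that fell in VAT alone and was at least 2-fold higher in SAT was St8sia6, a sialyltransferase gene at 0 against 0.271 CPM in SAT and at 9.99 and 13.4 against 0.824 CPM in VAT. These genes of VAT were chosen after their values were seen.

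Of the 95 called genes, 88 were also called in VAT alone. The VAT libraries enter both of these fits, and the fit with depot as a term calls genes that moved alike. This overlap is thus largely set in advance and is no independent check of the calls. Of the genes named above, Bmp3, Akr1c18, Wnt2, Bmper and Fgfrl1 were not called in VAT alone. A test of the difference in gate effect between depots passed for 40 of the 15920 genes by edgeR (712 at an unadjusted p under 0.05). It passed for 0 of the 95, with 5 of the higher and 2 of the lower genes at an unadjusted p under 0.05, as the construction of the fit favours. Over all genes, the log2 differences of SAT and VAT had a Pearson r of 0.586, and of 0.400 with VAT CD142 library 1 left out, which describes genes of shared libraries within each depot and carries no p.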

How the data were processed

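Polyadenylated RNA of 5 sorted stromal libraries was analysed. The authors deposited raw gene counts and gene lengths in bases. Per the submitters' processing notes, they used CASAVA, HISAT2 2.0.5, featureCounts 1.5.0-p3 and the mm10 build. The annotation release and the strand setting are not given in the sources used here. Members, gene lists and markers were chosen with earlier results of these data known.

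Low genes were removed by filterByExpr (groups: the depots, smallest count 10). Values were scaled by TMM and fitted in R 4.3.3 with edgeR 4.0.16 (robust quasi-likelihood, depot and CD26 gate by library name, 2 residual degrees of freedom), with Benjamini-Hochberg adjustment and a limit of 0.05. Of 54532 genes, 15920 were tested and 38612 removed. The table writes 27 gene symbols as dates, and these genes are not named. Differences within a depot use log2 CPM with a prior count of 2. VAT alone was fitted with its 3 libraries. The genes named were, in each direction, the 15 protein-coding genes of established symbol with the largest log2 change among those called, at least 2-fold apart in each depot and at 10 CPM or more in every library of the higher side. Other named genes are markers or list members, or were chosen after their values were seen. Alternatives were gates by title, library number as a block, other scalings and filters, limma-voom (limma 3.58.1), DESeq2 1.42.0, a 4-group fit and leaving out each library. Scripts were checked on simulated data. Exact 95% intervals cover counting error only. Promoters came from RefSeq.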

Additional observations from a re-analysis of the deposited data

Results flagged for a closer look

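For 16 listed genes the gate effect differed between depots by edgeR's test of the difference itself (adjusted p under 0.05), given here as the SAT effect minus the VAT effect on the log2 scale. The Areg markers Mgp (-5.56), F3 (-5.21) and Clec11a (-4.18) and the matrix genes Fmod (-4.47) and Mfap4 (-4.45) were lower in the CD26+ library of both depots, by more in SAT. F3 encodes CD142, on which the cells were sorted. Aldh1a3 (6.73) and Clu (-4.43) had opposite signs in the depots. The BMP ligands Bmp6 (9.35) and Bmp7 (8.68) were higher in both depots and listed at 0 in SAT CD142. Gli1 (-4.10) was lower in both, Dkk3 (-5.12) was lower in SAT and higher in VAT, and Aldh1a2 (-7.05) was lower in SAT with a log2 difference of -0.06 in VAT. The mesothelial and epithelial genes Krt8 (-13.71), Krt18 (-12.80) and Krt7 (-10.48), and Igfbp2 (-11.13), were lower in SAT and higher in VAT. In SAT the gate also separates CD142 and library number, which cannot be told apart from CD26 there.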

How the results depend on the processing

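With 1 CD26+ library per depot and 2 residual degrees of freedom, the number of calls moved widely. The 95 calls became 0 with SAT gates by title and 0 with library number as a replicate block (the cause was not tested), and 775 with no filter, 1338 by DESeq2 and 1053 in a 4-group fit. Called genes that moved the same way numbered 0, 0, 594, 804 and 725 under these settings. Other scalings, a 5 CPM filter, limma-voom and removal of mitochondrial genes gave 105 to 121 calls, which held 88 of the 95 with the 5 CPM filter, 80 by limma-voom and 95 under each of the others. By limma-voom, 4 of the 30 named genes did not pass. Leaving out each library gave 138 to 2034 calls, of which 138 to 1182 moved the same way: 383 without SAT CD142, 356 without SAT CD26, 522 without VAT CD26CD142 and 2034 without VAT CD142 library 2. Without a SAT library or the VAT CD26+ library, the gate is compared in 1 depot only. Without VAT CD142 library 2, every CD26+ library left is numbered 2 and every CD26- library is numbered 1. Gate and library number cannot be told apart in that fit. By title, 10 named genes reversed, with log2 changes of 0.42 (Apoe), 0.68 (Cxcl14), 0.37 (Car3), 0.30 (Cntfr), 0.49 (Kcne4), 0.0085 (Rasl12), 0.29 (Iqcn), 0.53 (Slc1a3), 0.19 (Dio3) and 0.62 (Ednra), and the other 20 no longer passed. Under the block, all 30 named genes kept their direction and none passed (adjusted p 0.255 to 0.398, edgeR). The size of their log2 changes under the block differed from that without it by -1.29 to 1.28, with Dpp4 at 6.21, Efhd1 at 5.30, Car3 at -5.82 and Duox1 at 4.74. With TMM scaling redone on the genes tested in VAT, the share of VAT-alone genes with the same sign in SAT was 88.7%. It was 93.8% with the 5 CPM filter. The shares given earlier for higher and lower genes used the scaling of the main fit and so differ slightly.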
